A study of Mus musculus with 8 samples.

Results

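Laminins are the cross-shaped proteins, each built of an alpha, a beta and a gamma chain, that form the sheet of basement membrane under an epithelium, and integrins are the paired receptors by which the cells hold on to it. The genes described here are 6 laminin chains (Lama3, Lama5, Lamb1, Lamb2, Lamb3 and Lamc1) and 3 integrin chains (Itga6, Itgb4 and Itgb1), taken by symbol from a table of 17634 genes. All 9 were found, and all 9 passed the filter on low counts that left 12908 genes for testing. RNA came from crypts of the mouse small intestine. The 4 libraries of miR-29ab1-/- C57BL/6N mice, which carry a deletion of the gene that gives rise to miR-29a and miR-29b-1, were compared with the 4 libraries of wild-type C57BL/6N mice, every mouse having been irradiated 3 days earlier. The radiation dose, the age and sex of the mice, how the deletion was made and whether animals were pooled are not stated in the labels, and unirradiated crypts were not analysed here.

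In the gut, epithelial cells make much of the laminin that holds the alpha 3 and beta 3 chains, which the integrin alpha 6 beta 4 binds at hemidesmosomes, the rivets that tie keratin filaments to the membrane. Laminins with an alpha 5 chain and a gamma 1 chain, joined by beta 1 or beta 2, come from epithelium and from the stroma below it, and are bound mainly by integrins that hold the beta 1 chain. In the mouse intestine the make-up of the membrane changes from crypt to villus. MicroRNAs of the miR-29 family are known to repress transcripts of matrix proteins, LAMC1 among them in human cells.

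The 3 members of that family share the seed, the bases by which a microRNA finds its targets, and they are shown to make the matches below readable. Capitals mark the seed, bases 2 to 8, in the RefSeq sequences on GRCm38.p6; miR-29a-3p lies at chr6:31062673-31062694 on the minus strand and miR-29b-3p at chr6:31063025-31063047, also on the minus strand, within the deleted locus. A further copy of miR-29b-3p (chr1:195037091-195037113) and miR-29c-3p (chr1:195037600-195037621), both on the plus strand, lie outside it.
miR-29a-3p: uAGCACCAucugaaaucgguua
miR-29b-3p: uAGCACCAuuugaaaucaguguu
miR-29c-3p: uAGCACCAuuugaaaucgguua

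Among the 9 genes, 2 held the complement of the seed, TGGTGCT, in their longest annotated 3′ UTR (GENCODE M21 on GRCm38, sense strand), and 7 did not. Of all tested genes with an annotated 3′ UTR, 15.5 percent held it (1968 of 12670). The sites are printed because Lamc1 and Itgb1 are the members with this match. Capitals mark the 7 matching letters. Shorter or other kinds of match, coding sequence and other UTRs of a gene were not searched. The Lamc1 match begins at base 1398 of a UTR of 2551 bases (chr1:153220067-153220091, minus strand) and is followed by an A, which makes it a match of 8 letters. In Itgb1 it begins at base 787 of 1112 (chr8:128732859-128732883, plus strand).
Lamc1: ctattatctgacacacTGGTGCTat
Itgb1: ttttttctttaattccTGGTGCTcc

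A match was found in 24.6 percent of the 1944 genes with UTRs of similar length to that of Lamc1 (80 to 125 percent of it), and in 11.8 percent of 1958 genes for Itgb1. The UTRs of the other 7 genes were 110 to 1310 bases long. A match of letters does not show that the site is used in these cells.

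Of the 9 genes, Lamb3 was called different between the genotypes and the other 8 were not (edgeR quasi-likelihood test, Benjamini-Hochberg adjusted over all 12908 genes, threshold 0.05). Lamb3 rose 2.03-fold in the knockout. Of all genes tested, 47.3 percent were called, 24.2 percent as higher and 23.1 percent as lower in the knockout, so a single call among 9 is a smaller share than the background. None of the 9 was called lower, none had an unadjusted p under 0.05 in that direction, and DESeq2 called none lower either. Other settings did call members lower: Lama5 with the replicate number as a block, Itgb1 with total counts, and Lamb2 and Lamc1 without 3 libraries rich in fibroblast transcripts. The median log2 fold change of the 9 was −0.01, beside 0.03 for all genes tested. Lamb3 was also the single member whose libraries did not overlap between the groups, where 45.4 percent of all genes did not overlap, 22.7 percent with the knockout higher.

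Libraries held 9481191 to 14612782 counts in the knockout and 10719659 to 16231089 in wild type. Markers of crypt epithelium (Epcam, Cdh1, 3 keratins, Vil1, Cdx1 and Cdx2) summed to 10989 to 17096 CPM (counts scaled to a common library size) in the knockout and 9632 to 12411 CPM in wild type, while 8 smooth muscle markers summed to at most 9.37 CPM in any library. Of the 8 crypt epithelium markers, 2 were called higher in the knockout (Epcam and Vil1) and 2 lower (Krt18 and Cdx1). Enterocyte markers were higher in the knockout in 15 of 15, dividing-cell markers lower in 12 of 12 and markers of Lgr5+ stem cells lower in 7 of 12. Among all genes tested, 24.2 percent were called higher and 23.1 percent lower. Leukocyte markers summed to 223 to 1664 CPM in the knockout and 70.9 to 464 CPM in wild type, and none of the 9 tested was called by edgeR or by DESeq2, or had an unadjusted p under 0.05. Replicate 4 of each group had 1 and 3 reads of 4 Y-linked genes, where the other 6 libraries had 1285 to 2061. In bulk RNA, fewer cells of a type and less RNA per cell cannot be told apart.

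**Figure D1:**
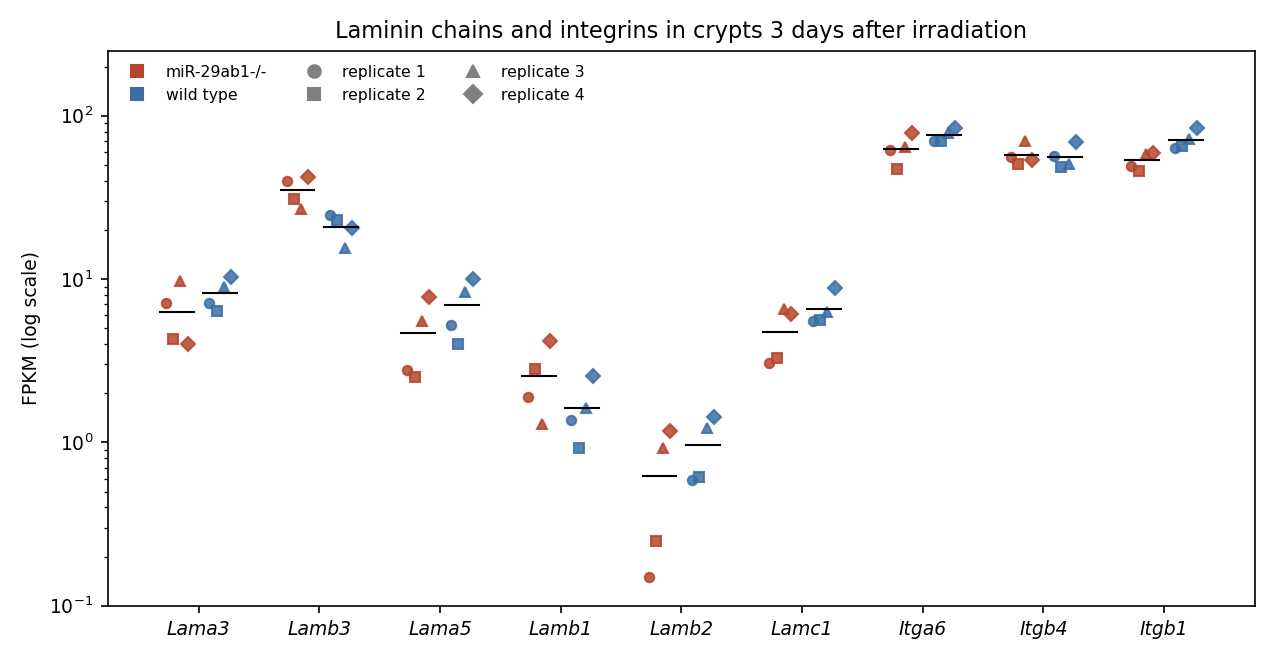
FPKM of the 9 genes in each library, on a log axis, with knockout libraries to the left of wild-type ones; the short bars are group means and the symbols are replicate numbers. Itga6, Itgb4 and Itgb1 sit between 46.15 and 84.61 FPKM in all 8 libraries, and Lamb2 lies lowest, at 0.15 to 1.42 FPKM.

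Levels can be set side by side between genes only per unit of transcript length. The deposited FPKM values were used for this (counts scaled by transcript length and library size). They do not hold the scaling factors of the edgeR fit (0.798 to 1.19), so they compare genes within a group and not genotypes. Lama3 averaged fewer FPKM in the knockout, while its log2 fold change in that fit was 0.04. Its FPKM per count, times the library total, was also lower in every knockout library than in every wild-type one. The missing scaling factors are thus not the only difference between FPKM and CPM for Lama3. The integrin chains were the most abundant of the 9. In the knockout Itga6 averaged 62.8 ± 12.8, Itgb4 57.6 ± 8.44 and Itgb1 53.3 ± 6.51 FPKM (SD, n = 4), and the ranges of neighbours in that order overlapped. In wild type the order was Itga6 (75.7 ± 6.97), Itgb1 (71.4 ± 9.41) and Itgb4 (56.2 ± 8.99 FPKM), again with overlapping neighbours. Lamb3 came next among the members, at 35.1 ± 7.40 FPKM in the knockout and 20.9 ± 3.97 FPKM in wild type. Lama3, Lama5 and Lamc1 averaged 4.66 to 6.29 FPKM in the knockout and 6.56 to 8.19 FPKM in wild type, and their order was not separated by the spread in either group. Lamb1 (2.55 ± 1.26 in the knockout, 1.62 ± 0.684 FPKM in wild type) and Lamb2 (0.623 ± 0.5001 in the knockout, 0.963 ± 0.426 FPKM in wild type) were the scarcest; their ranges overlapped in wild type but not in the knockout. Beta 3 was thus the laminin beta chain with the highest level per length in every library.

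Of the chains of the epithelial laminin, beta 3 was called and alpha 3 was not; the difference between them was not tested. Lama3, its alpha chain, stood at 54.3, 34.5, 52.2 and 26.2 CPM in knockout replicates 1 to 4, against 37.4, 34.1, 41.2 and 49.9 CPM in wild type. The knockout libraries spread on both sides of the wild-type ones, with replicate 4 lowest in its group and highest in wild type. The log2 fold change of Lama3 was 0.04 (SE 0.23; 95 percent interval −0.49 to 0.57), with an edgeR adjusted p of 0.902; its sign turned under other scalings and without single libraries.

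Lamb3, its beta chain, had 197, 148, 99.1 and 169.7 CPM in knockout replicates 1 to 4, against 92.0, 86.6, 51.3 and 72.2 CPM in wild type. Every knockout library lay above every wild-type one, though knockout replicate 3 cleared wild-type replicate 1 by a small margin. The means were 153 ± 41.5 CPM in the knockout and 75.5 ± 18.2 CPM in wild type (SD, n = 4), a log2 fold change of 1.02 (SE 0.24) with an edgeR adjusted p of 0.00771. Within each replicate number the knockout library was 1.71 to 2.35 times the wild-type one. In replicates 1 to 3 alone, leaving out the libraries without Y-linked transcripts, the log2 fold change was 0.93 (edgeR adjusted p = 0.0472). Leaving out each library in turn gave adjusted p-values of 0.00224 to 0.0273.

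Enterocyte transcripts were higher in the knockout, as Lamb3 was. The summed level of 15 enterocyte markers, such as Lct, Sis and Fabp2, was 99334, 85410, 29450 and 45284 CPM in knockout replicates 1 to 4 and 12083, 12216, 3972 and 2041 CPM in wild type. The knockout library with the least Lamb3, replicate 3, was also the one with the lowest enterocyte sum of its group, and in wild type replicates 1 and 2 were above replicates 3 and 4 in both measures. The order was reversed elsewhere: knockout replicate 4 had more Lamb3 than replicate 2 with the lower enterocyte sum, and wild-type replicate 4 more than replicate 3 with the lower sum. The part of enterocyte content in the Lamb3 difference was not tested.

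**Figure D2:**
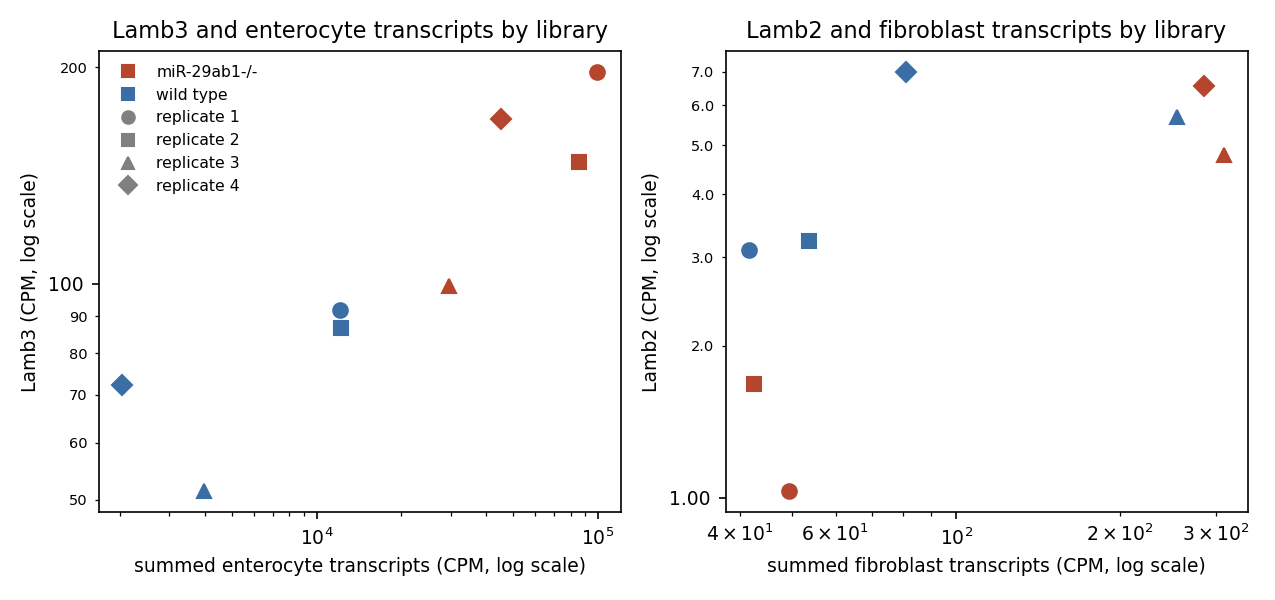
Each point is a library, coloured by genotype and shaped by replicate number, on log axes. The left panel sets Lamb3 (CPM) against summed enterocyte markers, with knockout libraries at 29450 to 99334 CPM of markers and wild-type ones at 2041 to 12216; the right panel sets Lamb2 (CPM) against summed fibroblast markers, where 3 libraries stand at 255 to 310 CPM and the other 5 at 41.6 to 80.9.

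**Figure D3:**
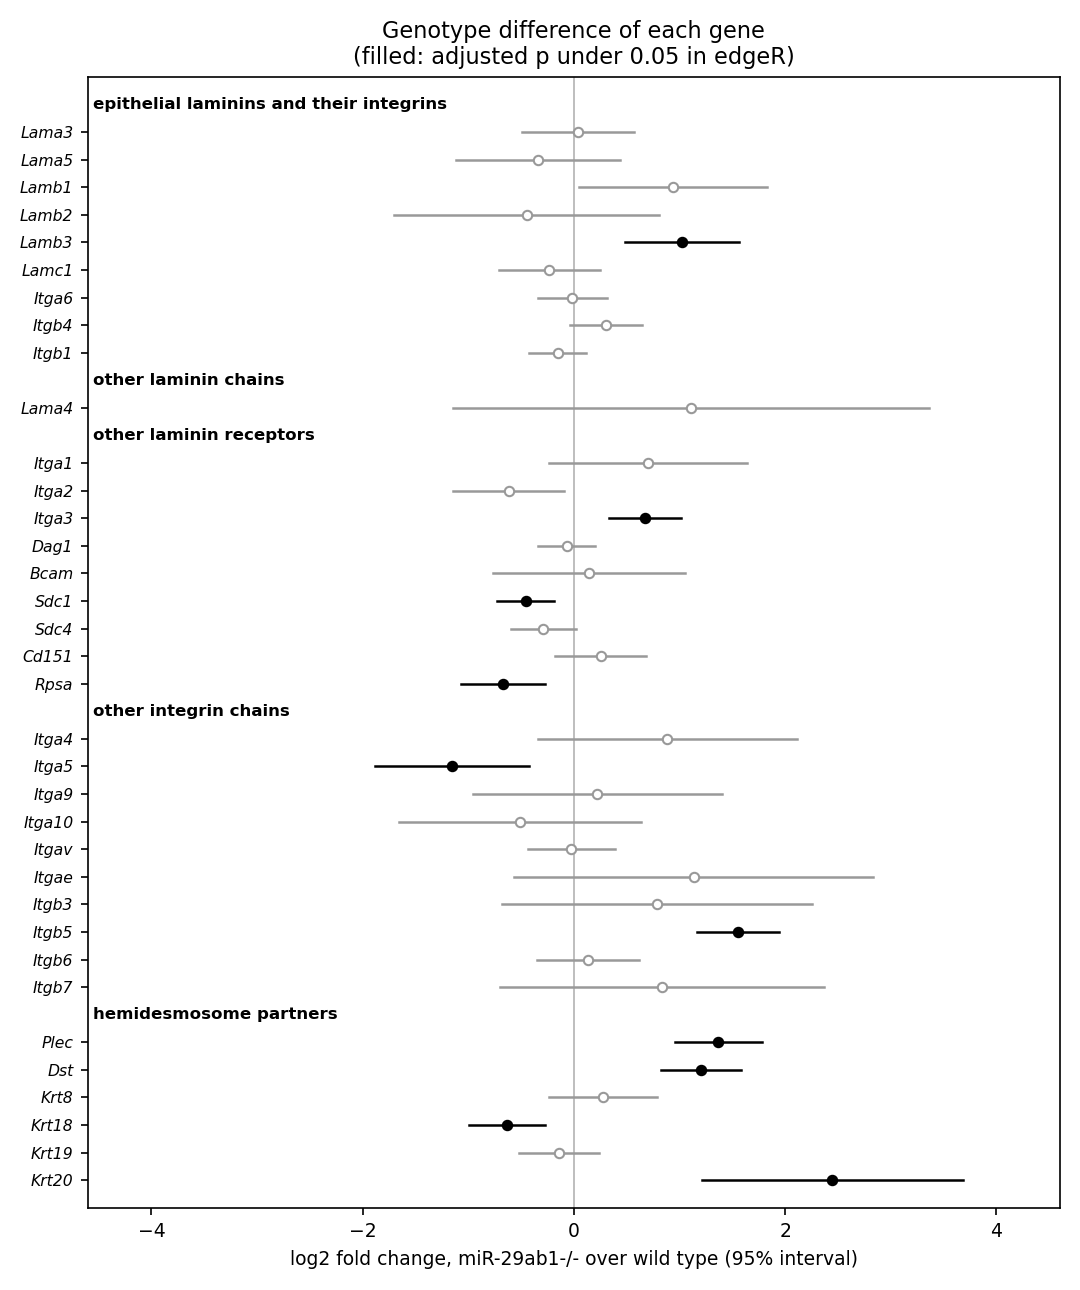
Log2 fold change of each gene, knockout over wild type, with its 95 percent interval from the edgeR fit, for the 9 genes and for 4 lists of related genes; filled black points passed the adjusted threshold. Lamb3 is the single filled point of the first block, and Plec, Dst and Krt20 lie to its right in the last.

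None of the chains of the laminins that contain alpha 5 was called with all 8 libraries and genotype alone in the edgeR model; each was called under at least 1 other setting, given with its values. Lama5 had 39.6, 34.1, 59.2 and 89.4 CPM in knockout replicates 1 to 4, against 56.3, 43.7, 79.5 and 101 CPM in wild type. The groups overlapped, and in both of them replicates 1 and 2 were low and replicate 4 high. The log2 fold change was −0.34 (SE 0.34; edgeR adjusted p = 0.442). Within each replicate number the knockout library was 0.703 to 0.885 times its wild-type partner, and with the replicate number as a block Lama5 was called lower (log2 fold change −0.36, edgeR adjusted p = 0.0131; with the block, 56.0 percent of all genes were called, 27.5 percent as lower).

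Lamb1, the beta chain shared by many laminins, stood at 13.3, 19.0, 6.98 and 24.2 CPM in knockout replicates 1 to 4, and at 7.33, 5.02, 7.71 and 12.9 CPM in wild type. Knockout replicates 1, 2 and 4 were above all wild-type libraries, and replicate 3 fell among them. The log2 fold change was 0.94 (SE 0.40; interval 0.05 to 1.83), with an edgeR adjusted p of 0.0779. Lamb1 was called higher with the replicate block (0.0425; 28.4 percent of all genes were), with DESeq2 (0.0482; 22.1 percent of all genes were), and without knockout replicate 3 or wild-type replicate 4 (0.0147 and 0.0385); its call therefore rests on the fit chosen.

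Lamb2, the alternative beta chain, which takes the place of beta 1 in some basement membranes, was barely detected. It had 1.03, 1.68, 4.79 and 6.55 CPM in knockout replicates 1 to 4, against 3.10, 3.23, 5.68 and 6.99 CPM in wild type, from 12 to 127 reads a library. Knockout replicates 1 and 2 were below every other library. The log2 fold change was −0.45 (SE 0.56; interval −1.70 to 0.81), and the edgeR adjusted p was 0.533. Within each replicate number the knockout library was lower, at 0.332 to 0.937 times its wild-type partner, and with the block the log2 fold change was −0.63 (edgeR adjusted p = 0.112).

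Lamc1, the common gamma chain and one of the 2 genes with a seed match, had 28.8, 29.8, 46.8 and 46.7 CPM in knockout replicates 1 to 4, and 39.3, 40.4, 39.7 and 59.1 CPM in wild type. The knockout libraries split into a low and a high pair, and wild-type replicate 4 stood above the rest. Its log2 fold change was −0.23 (SE 0.21; interval −0.71 to 0.25), and the edgeR adjusted p was 0.389.

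Fibroblast transcripts varied between the same libraries. The sum of 12 fibroblast markers was 49.3, 42.4, 310 and 285 CPM in knockout replicates 1 to 4 and 41.6, 53.7, 255 and 80.9 CPM in wild type; 1 of the 9 tested markers, Pdgfrb, was called (higher). Without the 3 libraries with the highest sums (2 knockout and 3 wild-type libraries remained), Lamb2 and Lamc1 were called lower, with log2 fold changes of −1.72 and −0.66 (edgeR adjusted p = 0.0326 and 0.0450; 23.3 percent of all genes were lower), and Lamb3 stayed higher (1.05; 0.00371). This setting was chosen after seeing the data. Some further laminin chains were near zero: Lama2 had at most 17 reads in a library, Lamc3 at most 9 and Lama1 at most 2. These 3 were not tested, while Lama4, with 2 to 53 reads, was not called (edgeR adjusted p = 0.385).

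**Figure D4:**
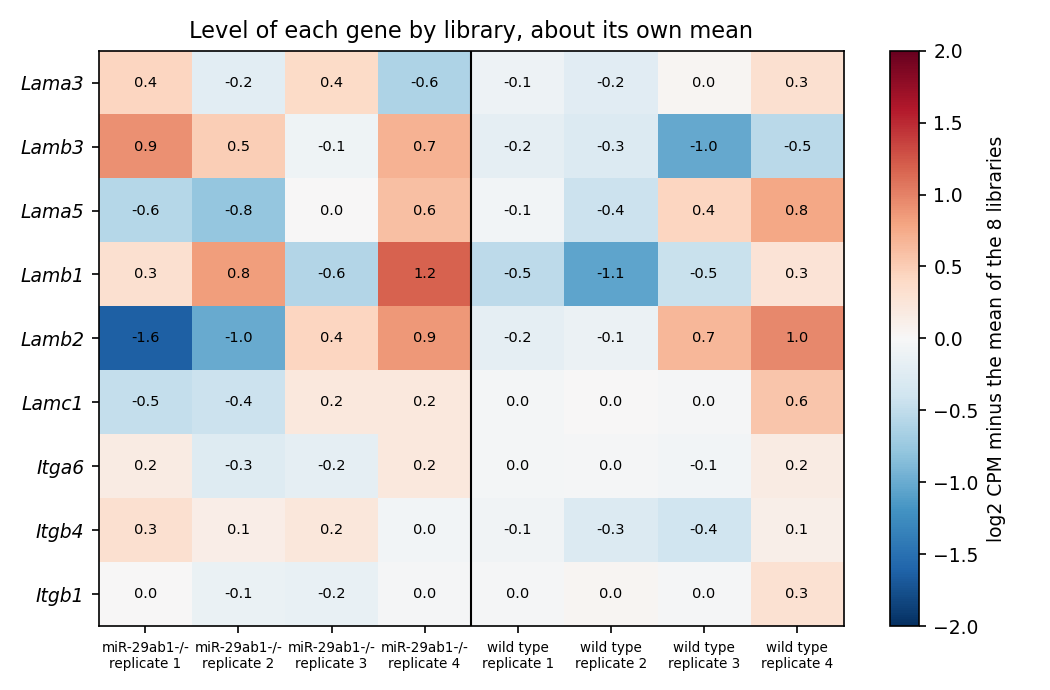
Log2 CPM of each gene in each library minus the gene's mean over the 8 libraries, knockout replicates on the left of the line and wild-type replicates on the right; red is above the mean and blue below. Lamb3 is 0.91 and 0.70 above its mean in knockout replicates 1 and 4, and Lama5, Lamb2 and Lamc1 are all low in knockout replicates 1 and 2 and high in wild-type replicate 4.

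The integrin chains differed least between libraries. Itga6, the alpha chain that pairs with beta 4 or beta 1, had 445, 329, 349.7 and 458 CPM in knockout replicates 1 to 4, against 386, 389, 380.4 and 440.3 CPM in wild type. Knockout values lay on both sides of the wild-type range. The log2 fold change was −0.01 (SE 0.15; interval −0.34 to 0.32) and the edgeR adjusted p was 0.947.

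Itgb4, whose long tail links the membrane to keratin, had 415, 363.6, 389.8 and 322 CPM in knockout replicates 1 to 4, against 318, 275, 252 and 362.5 CPM in wild type. Knockout replicates 1 to 3 were above all wild-type libraries, replicate 2 by the smallest margin, over wild-type replicate 4, and knockout replicate 4 fell within the wild-type range. Its log2 fold change, 0.30 (SE 0.15), was not past the threshold (edgeR adjusted p = 0.124).

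Itgb1, the beta chain of most laminin receptors and the other gene with a seed match, had 252, 228, 224 and 247 CPM in knockout replicates 1 to 4, and 246.2, 256, 246.4 and 308 CPM in wild type. Only wild-type replicate 4 stood clear of the others. The log2 fold change was −0.15 (SE 0.12; interval −0.42 to 0.12), and the edgeR adjusted p was 0.315. Scaled by total counts it was called lower (−0.42; 0.0352; 31.1 percent of all genes were), but that scaling moved the median of all genes to −0.23; relative to that median Itgb1 was −0.19 in both scalings.

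Ratios between chains within a library need no scaling between libraries. A set of 5 was compared by two-sided exact permutation tests over the 70 assignments of libraries, for which the smallest p is 0.029. Itgb4 relative to Itgb1 was 1.65, 1.60, 1.74 and 1.304 in knockout replicates 1 to 4, as a ratio of counts, and 1.292, 1.07, 1.02 and 1.18 in wild type. Every knockout ratio was above every wild-type one, replicate 4 of the knockout by little. The log2 ratio was higher by 0.46 in the knockout, at the smallest p the test allows (exact permutation p = 0.029; 0.143 adjusted over the 5 ratios). A single ratio at the smallest p cannot adjust below 0.143 here, so the adjusted value does not tell whether the difference holds.

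The other 4 ratios overlapped between the groups. Lama3 to Lama5 had log2 ratios of −0.37 ± 0.97 in the knockout and −0.73 ± 0.31 in wild type (SD, n = 4; exact permutation p = 0.514). For Lamb3 to Lamb1 these were 3.37 ± 0.56 in the knockout and 3.24 ± 0.76 in wild type (n = 4; exact permutation p = 0.686), with Lamb3 5.59 to 17.1 times Lamb1 in all 8 libraries. Lamb2 to Lamb1 was −2.38 ± 1.46 in the knockout and −0.80 ± 0.34 in wild type (n = 4; exact permutation p = 0.114), with knockout replicates 1 and 2 lowest. Itga6 to Itgb4 was 0.08 ± 0.31 in the knockout and 0.41 ± 0.16 in wild type (n = 4, exact permutation p = 0.143). For Lama3 to Lama5 the log2 ratio was higher in the knockout by 0.36 on counts and by 0.19 on FPKM values.

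**Figure D5:**
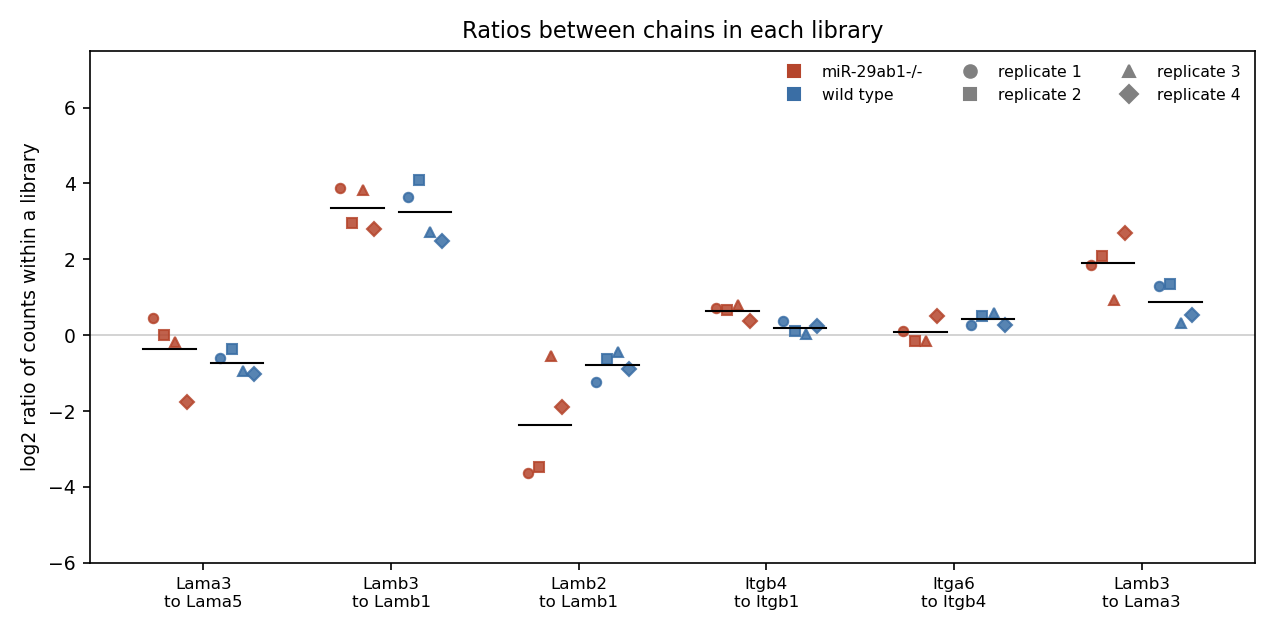
Log2 ratio of counts between pairs of genes within each library, knockout to the left of wild type, bars marking group means and symbols replicate numbers. The first 5 pairs are those tested and the last, Lamb3 to Lama3, was added after the values were seen; Itgb4 to Itgb1 is the pair whose groups do not overlap.

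Across the 8 libraries, which include the genotype difference and share depth and scaling, Lama5, Lamb2 and Lamc1 varied together. Pearson's r of log2 CPM was 0.91 between Lamb2 and Lamc1, 0.90 between Lama5 and Lamb2 and 0.85 between Lama5 and Lamc1. Lamb1, whose product also joins alpha 5, had an r of 0.12 with Lama5, −0.08 with Lamb2 and −0.12 with Lamc1, while Lama3 and Lamb3 had an r of −0.17. These are descriptions without a test. The closest of 10655 other genes with a mean of at least 50 counts were also sought. Over 8 libraries, a high r for the closest of so many genes can arise by chance. Those most like Lamb3 were Tef (r = 0.99), a transcription factor of circadian output, and Tmc7 (0.99). Both were themselves higher in the knockout (log2 fold change 1.69 and 2.13). Those most like Lama5 were Bahcc1 (0.99) and Upf2 (0.98). Lamc1 was closest to Mid1 (0.995) and Pigm (0.98), and Lamb2 to Pkd2 and Fry (0.98 each). Itgb4 was closest to Lmbr1 (0.99) and Cfap97 (0.92), Itgb1 to Fmr1 (0.97) and Kpna1 (0.93), Itga6 to Rffl and Traf6 (0.92 each), Lama3 to Trim16 (0.92) and Bhlhe40 (0.91), and Lamb1 to Trim32 (0.96) and the Paneth cell defensin Defa34 (0.93).

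Genes around the laminins were described through 7 lists of 81 genes, of which 66 were tested; 23 of these, or 34.8 percent, were called, 14 higher and 9 lower in the knockout, beside the 47.3 percent of all genes. Their edgeR adjusted p-values ran from 0.00104 to 0.0302. The part that the enterocyte and dividing-cell differences given above have in these lists was not tested. Among other laminin receptors 1 of 9 tested genes rose and 2 fell (median log2 fold change −0.07), beside 24.2 percent and 23.1 percent of all genes. Itga3, the alpha chain that pairs with beta 1 to bind the alpha 3 laminin, had 311, 254, 205 and 211 CPM in knockout replicates 1 to 4 against 160.3, 143, 147.5 and 163 CPM in wild type, a rise of 1.60-fold. Sdc1, a syndecan, fell by 0.46 and Rpsa, a ribosomal protein also described as a laminin receptor, fell by 0.67 on the log2 scale. The tetraspanin Cd151, dystroglycan (Dag1) and Bcam were not called. With the replicate block 4 genes of this list were lower rather than 2, where 27.5 percent of all genes were lower. The calls of Sdc1 and Rpsa were lost in replicates 1 to 3 alone (edgeR adjusted p = 0.0734 and 0.0631). Both were also lost without the 3 libraries with the highest fibroblast transcripts (edgeR adjusted p = 0.0558 and 0.0615).

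Among genes listed as hemidesmosome partners, 3 of 6 tested rose and 1 fell (median 0.74), beside 24.2 percent and 23.1 percent of all genes. Plec encodes plectin, which ties the Itgb4 tail to keratin, and had 652, 413, 682 and 693 CPM in knockout replicates 1 to 4 against 263, 210.5, 231 and 240.1 CPM in wild type. Dst, which has an epithelial form among others, had 82.2, 50.6, 66.0 and 81.2 CPM in the knockout and 29.95, 25.9, 31.4 and 34.0 CPM in wild type. Counts per gene do not tell its forms apart. No wild-type library reached the lowest knockout one in either gene, and the folds were 2.58 and 2.31 (edgeR adjusted p = 0.00116 and 0.00119). Krt20, a keratin of differentiated epithelium that is also on the enterocyte list, rose 5.46-fold, and Krt18 fell by 0.64 on the log2 scale, a call lost in replicates 1 to 3 alone (edgeR adjusted p = 0.0610). Col17a1, a hemidesmosome collagen of skin, had at most 2 reads in a library.

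Other integrin chains changed in 2 of 10 tested genes (median 0.50), beside 47.3 percent of all genes called. Itgb5, a vitronectin receptor chain, had 53.4, 47.0, 37.5 and 47.5 CPM in knockout replicates 1 to 4 and 19.2, 17.8, 14.2 and 12.2 CPM in wild type, a rise of 2.93-fold. Itga5, the fibronectin receptor chain, averaged 5.66 ± 2.59 CPM in the knockout and 12.6 ± 2.70 CPM in wild type (SD, n = 4) and fell by 1.16 on the log2 scale.

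Of 13 other basement membrane genes, 4 were called higher, none lower and 9 not called (median 0.72). Of all genes, 24.2 percent were called higher and 23.1 percent lower. None of the 13 was lower at an unadjusted edgeR p under 0.05 or by DESeq2. The proteoglycan agrin, Agrn, rose 1.73-fold to 197 ± 30.7 CPM in the knockout, against 114 ± 13.8 CPM in wild type, and fibulin 1, Fbln1, rose 2.57-fold (SD, n = 4). With total counts the call of Agrn was lost (edgeR adjusted p = 0.0617). Tinag and Nid2, which encodes the laminin-binding nidogen 2, rose 2.10-fold and 1.65-fold. The call of Nid2 was lost without any 1 of 7 libraries (all but wild-type replicate 3), with edgeR adjusted p up to 0.101. It was also lost with total counts (edgeR adjusted p = 0.217), upper-quartile factors (0.0593) and replicates 1 to 3 alone (0.0895). Leaving out the 3 libraries with the highest fibroblast transcripts gave 0.0504. Hspg2, perlecan, was not called, at 30.5 ± 18.4 CPM in the knockout and 50.05 ± 17.99 CPM in wild type. With the replicate block 7 genes of this list were higher and 2 lower, beside 28.4 percent and 27.5 percent of all genes with that block.

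Proteases and their inhibitors rose in 3 and fell in 1 of 11 tested genes (median 0.05), beside 24.2 percent and 23.1 percent of all genes. Bmp1, a procollagen protease, rose 5.24-fold, and Mmp15 1.63-fold. Mmp14, a membrane-bound metalloprotease, fell by 0.71 on the log2 scale. Plat, a plasminogen activator, rose 1.94-fold, a call lost without knockout replicate 1 or 4 or wild-type replicate 3 or 4 (edgeR adjusted p = 0.0662 to 0.0702). It was also lost with total counts (edgeR adjusted p = 0.0875) and in replicates 1 to 3 alone (0.134). Leaving out the 3 libraries with the highest fibroblast transcripts gave 0.0961.

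Of 16 tested genes of focal adhesions and integrin signalling inside the cell, 2 rose and 4 fell (median 0.08), a smaller share than the 47.3 percent of all genes called. Src, a kinase activated at adhesions, rose 1.95-fold and its substrate Bcar1 1.76-fold, a call lost in replicates 1 to 3 alone (edgeR adjusted p = 0.0550). Talin 2 (Tln2), which links integrin tails to actin, fell by 1.04, alpha-parvin (Parva) by 0.56, kindlin 1 (Fermt1) by 0.47 and focal adhesion kinase (Ptk2) by 0.35 on the log2 scale. Without wild-type replicate 4 the calls of Parva, Fermt1 and Ptk2 were lost (edgeR adjusted p = 0.0534, 0.0820 and 0.0747) and that of Tln2 held. That of Fermt1 was also lost without wild-type replicate 1 (edgeR adjusted p = 0.0637) and that of Ptk2 without wild-type replicate 3 (0.0604). Both were lost in replicates 1 to 3 alone (edgeR adjusted p = 0.0882 and 0.0695). Leaving out the 3 libraries with the highest fibroblast transcripts also lost the call of Ptk2 (edgeR adjusted p = 0.0748).

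Of the 66 tested listed genes, 15 (22.7 percent) held the seed match in the 3′ UTR, beside 15.5 percent of all tested genes with an annotated 3′ UTR. UTR length was not matched in this comparison. Agrn and Src among them rose, Itga5 and Fermt1 fell, and the other 11, including Col4a1, Dag1 and Vcl, were not called. Of all genes tested, 24.2 percent were called higher and 23.1 percent lower.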

How the data were processed

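RNA-seq of crypts was analysed from 1 deposited table. The authors deposited read counts per gene, per the file headers; 8.04 to 9.18 percent of values were not whole, so these deposited values were treated as estimated counts and rounded. A second deposited set of columns, with no unit in its header, was taken as FPKM. Divided by the counts and multiplied by library totals, it was constant per gene to within 0.663 percent over the 3363 genes checked. Lama3 did not keep to this: its value, so scaled, was lower in every knockout library than in every wild-type one. The submitters' processing notes list HISAT2 and DESeq2, with no role and no version. Counting tool, strandedness, build and annotation are not stated. Columns were matched to samples by the short names in the labels. Overlapping genes could share reads if counting ignored strand.

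Testing used edgeR 4.0.16 (R 4.3.3): low counts were filtered with filterByExpr, libraries scaled with TMM, and the steps glmQLFit and glmQLFTest run. The model held genotype and no other term; it was checked on simulated counts. SE is the log2 fold change over the square root of F. CPM use TMM factors, and log2 CPM a prior count of 2. In ratios 0.5 was added to each count. DESeq2 1.42.0 was an alternative, beside other scalings, filters, a replicate block and leaving out libraries. No library repeated another: chi-square per gene of the closest pair was 6.05. Nothing in the labels tells whether replicates were separate animals. The Y-linked reads show that replicate 4 of each group came from different animals than replicates 1 to 3. Whether replicates 1 to 3 were separate animals is not known. The p-values therefore cover the spread among these libraries alone, part of which may be technical.

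Same-numbered libraries of the 2 genotypes correlated at 0.31 to 0.52 in their deviations from group means. Other pairs ran from −0.48 to 0.45, so the ranges overlapped. Each knockout library had its highest correlation with the wild-type library of its own number. Wild-type replicate 2, however, was closer to knockout replicate 1 (0.45) than to knockout replicate 2 (0.31). Because the labels share replicate numbers, a fit with the number as a block was run as an alternative. The main model and the permutation tests of ratios did not use this pairing. What a number marks is not stated.

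The 9 genes, the lists and the tests were chosen with earlier results of these data known. From each list every called gene is named where a direction had 5 or fewer, and for each of the 9 genes the 2 most correlated genes. Others, such as Hspg2 and Bcam, were named after their values were seen. A gene related to these lists is not reported here.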

Additional observations from a re-analysis of the deposited data

Results flagged for a closer look

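In 28 sets of 4 values (each of the 9 genes and 5 ratios in each group), 3 had a library far from the other 3 by Dixon's criterion, which chance gives in about 1 in 20 such sets. All 3 were wild-type replicate 4. It had 59.13 CPM of Lamc1, where the other wild-type libraries had 39.3 to 40.4 CPM. It had 440.3 CPM of Itga6, against 380.4 to 389 CPM in the others, and 308.0 CPM of Itgb1, against 246.2 to 256 CPM. This library had 3 reads of Y-linked genes and the lowest enterocyte sum, 2041 CPM.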

How the results depend on the processing

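Lamb3 was called higher under every alternative run, with log2 fold changes of 0.85 to 1.18 when single libraries were left out. Lama3 and Itga6 were not called under any and changed sign: Lama3 was −0.24 with total counts and −0.058 with upper-quartile factors, and −0.17 to 0.16 without single libraries; Itga6 was 0.017 when genes under 50 counts on average were dropped, and −0.13 to 0.040 without single libraries. With the replicate block Lama5 (−0.36) and Lamb1 (0.89) were called, and no other call among the 9 changed. DESeq2 called Lamb1 (0.95), which ranged from 0.64 to 1.24 without single libraries. Total counts called Itgb1 lower (−0.42); that scaling called 2089 genes higher and 4011 lower, against 3129 and 2976. Without the 3 libraries with the highest fibroblast transcripts, Lamb2 (−1.72) and Lamc1 (−0.66) were called. The causes of these changes were not tested. Of 391 refits of the named list genes, 358 kept direction and side of the threshold, 33 did not and none reversed. Ratios under the replicate block kept their values, and a sign-flip test of 4 pairs cannot go below 0.125. At 12 to 127 reads, counting error limits Lamb2 most.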
